A study of Rattus norvegicus with 8 samples.

Results

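Immediate early genes were examined in the renal cortex of male and female rats. The 10 genes considered were Fos, Fosb, Jun, Junb, Egr1, Atf3, Ier2, Dusp1, Zfp36 and Klf6, and a probe was assigned to a gene when its RefSeq accession belonged to that gene. By this rule 9 of the 10 genes had a probe, out of 14737 named genes on the array, and each of the 9 had exactly 1 probe. Fosb had no probe named by this rule and was not analysed here. Total RNA came from cortical kidney slices of 4 female and 4 male adult rats of the strain RCCHanTMWIST, a Han Wistar stock, and each rat was measured on its own one-colour array. The animals carried no transgene and received no treatment, and sex is the only factor that the labels name. The labels give the same dissection protocol for each rat, with slices preserved in RNAlater, but the time from death to preservation of each rat is not given in the sources used here.

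Immediate early genes are transcribed within minutes of a stimulus, without the need for new protein synthesis, and their mRNAs are short-lived. Growth factor and stress signals reach them through MAP kinases, which act on serum response factor with its ternary complex partners at CArG boxes and on CREB at cAMP response elements (CRE). Many members encode transcription factors, and others encode proteins that end the response. In kidney they are known to be induced by ischaemia, and in excised tissue they can be induced during dissection, which is why their covariation between animals is of interest.

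Promoter windows were printed to show which members carry letters that match these response elements close to the transcription start. RefSeq windows of the GRCr8 assembly, from 250 bases before to 50 bases after the start, were found for 7 of the 10 genes: Fosb, Junb, Egr1, Ier2, Dusp1, Zfp36 and Klf6. A match to the CArG box, searched as A or T letters between CC and GG, was present in 3 of these 7 windows. It was present in 1.64% of all 33469 windows. The CRE, searched as TGACGTCA, was present in 2 of 7 and in 1.83% of all windows. The AP-1 site, searched as TGACTCA, was present in 0 of 7 and in 4.63% of all windows. All motifs were searched on both strands, and the letters of the CRE and of the AP-1 site cannot coincide. In the stretches below, motif letters are capitals and each motif has up to 30 bases on either side. They lie at chr18:26736943-26737034 (plus strand) for Egr1, chr1:92799109-92799170 (minus strand) for Zfp36, chr17:69458640-69458709 (minus strand) for Klf6, chr19:40399277-40399344 (plus strand) for Ier2 and chr10:17184699-17184766 (plus strand) for Dusp1.
Egr1, CArG boxes: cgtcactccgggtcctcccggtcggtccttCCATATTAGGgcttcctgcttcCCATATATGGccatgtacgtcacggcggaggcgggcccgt
Zfp36, CArG box: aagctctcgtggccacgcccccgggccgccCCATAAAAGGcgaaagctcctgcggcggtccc
Klf6, CArG box: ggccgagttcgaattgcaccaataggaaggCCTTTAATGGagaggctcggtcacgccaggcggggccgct
Ier2, CRE: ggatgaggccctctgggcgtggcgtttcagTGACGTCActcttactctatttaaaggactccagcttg
Dusp1, CRE: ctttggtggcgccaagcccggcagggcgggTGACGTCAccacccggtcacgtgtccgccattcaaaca

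The Egr1 window held 2 CArG boxes, which began 105 and 83 bases before the start, whereas that of Zfp36 began 32 and that of Klf6 began 201 bases before it. The CRE of Ier2 began 66 and that of Dusp1 began 124 bases before the start. The windows of Fosb and Junb held none of the 3 motifs. Such a match describes the letters only and is no evidence of binding. The CArG search accepts any mix of A and T between CC and GG. A match, such as that of Zfp36 close to the start, therefore need not be a response element.

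A single slide carried the 8 arrays, and each of its 2 rows held 2 females and 2 males. The 75th percentile of the signal of an array ranged from 5025 to 5944 in females and from 5685 to 6547 in males, and 73.8% to 79.1% of the probes of an array were well above background. No spot was saturated. The tissue label was checked with 7 proximal tubule markers, all of which were well above background on 8 of 8 arrays, and their mean log2 value was 4.02 to 4.21 in females and 4.05 to 4.15 in males. This mean joins opposite directions, as 2 of the 7 markers were higher in males and 5 in females. Taken singly, 4 of the 7 (57.1%) had no overlap between the sexes, against 18.5% of all tested probes. Among the other cell type markers, the 3 measured markers of the thick ascending limb (Umod, Kcnj1 and Cldn16) averaged 1.496 to 1.569 in females and 0.99 to 1.27 in males, without overlap between the sexes.

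The values given below are log2 signals from which the array's own 75th percentile was subtracted, in the order of rats 1 to 4 of each sex, and a log2 fold-change is male minus female. The 9 genes were well above background on 8 of 8 arrays. In a bulk slice, fewer cells that express a gene and less RNA of it per cell cannot be told apart.

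None of the 9 immediate early genes passed the test for a difference between male and female kidney cortex, and the ranges of the sexes overlapped for each of them. After adjustment over the 23425 probes tested with limma, 0 of 9 passed an adjusted p of 0.05, where 8.05% of all tested probes did, and 0 of 9 passed the adjusted p together with a 2-fold change, where 1.89% did. At an unadjusted p of 0.05 the count was also 0 of 9, compared with 25.6% of all tested probes. No overlap of the sexes was found for 0 of 9 genes and for 18.5% of the tested probes. The direction was divided, with 5 genes higher in females and 4 higher in males, and the median log2 fold-change was -0.07 for the 9 genes and -0.04 for all tested probes. The 95% interval of the log2 fold-change included 0 for 9 of 9 genes and stayed between -1 and 1 for 8 of them, the exception being Fos. With 4 rats per sex, differences inside these intervals remain possible, and the smallest detectable difference of each gene was not computed.

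**Figure D1:**
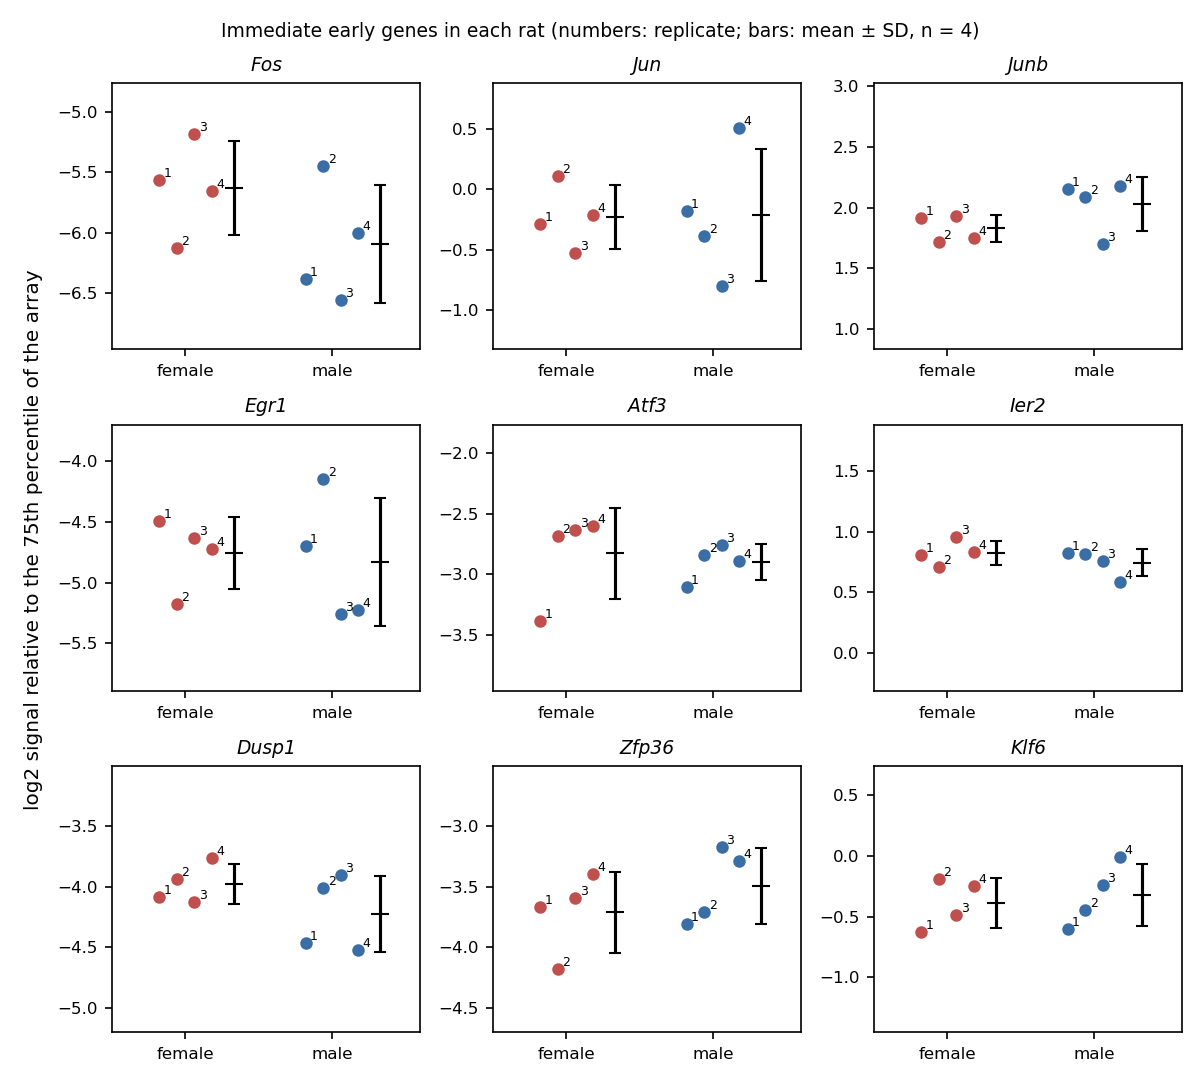
Log2 signal relative to the 75th percentile of the array (vertical axis, the same span in each panel) of 9 immediate early genes in 4 female (red) and 4 male (blue) rats; points are rats with their replicate number, and bars are mean ± SD. The sexes overlap in every panel, and the rat with the highest value changes from gene to gene.

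Among the subunits of AP-1, the dimeric transcription factor that gives the Fos and Jun families their role, Fos showed the widest range between rats. Fos values were -5.56, -6.13, -5.18 and -5.65 in females and -6.38, -5.45, -6.55 and -6.00 in males. Female 3 was highest and male 3 lowest, a 2.59-fold span, and male 2 and male 4 lay within the female range. The log2 fold-change of Fos was -0.46 (SE 0.27, 95% interval -1.08 to 0.16, limma adjusted p = 0.324), and a two-sided exact permutation test over the 70 assignments of the 8 rats gave p = 0.2. The difference was -0.77 between the 2 males and 2 females in the first row of the slide and -0.16 in the second row.

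Jun, the partner subunit of Fos, had almost equal means in the sexes. Its values were -0.29, 0.11, -0.53 and -0.22 in females and -0.18, -0.39, -0.80 and 0.50 in males, so that the highest and the lowest rat were both male. This gave a log2 fold-change of 0.01 (SE 0.26, adjusted p = 0.981 by limma; exact permutation p = 0.971). Within the slide rows the difference was 0.53 and -0.51, and without male 4 it was -0.22 over all rats.

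Junb, a Jun family subunit with weaker activating capacity, measured 1.92, 1.71, 1.93 and 1.75 in females and 2.15, 2.09, 1.70 and 2.18 in males. Of the males, 3 lay above every female and male 3 lay below every female. A log2 fold-change of 0.20 was estimated (SE 0.12, 95% interval -0.07 to 0.48, adjusted p = 0.331 by limma), and without male 3 it was 0.31 (adjusted p = 0.0813 by limma). The exact permutation p of 0.171 was the lowest of the 9 genes, against a smallest possible value of 0.0286.

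Of the other transcription factors, Egr1, a zinc finger factor induced by growth factors, was at -4.49, -5.18, -4.63 and -4.73 in females and -4.70, -4.14, -5.26 and -5.23 in males. Male 2 was highest, and male 3 and male 4 lay just below female 2. The log2 fold-change was -0.07 (SE 0.26, adjusted p = 0.891 by limma; exact permutation p = 0.714), and its sign turned to 0.01 with quantile normalization and with the deposited log2 values.

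Atf3, a basic leucine zipper factor of the stress response, was at -3.39, -2.68, -2.63 and -2.60 in females and -3.11, -2.85, -2.76 and -2.89 in males. Female 1 was the lowest of all rats and stood apart from the other females, which were the 3 highest. The log2 fold-change was -0.07 (SE 0.18, adjusted p = 0.838 by limma; exact permutation p = 0.714), and without female 1 it was -0.26.

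Klf6, a Krüppel-like zinc finger factor, measured -0.63, -0.19, -0.49 and -0.25 in females and -0.60, -0.45, -0.24 and -0.01 in males. The sexes were interleaved, with male 4 highest and female 1 lowest. Between the sexes the log2 fold-change was 0.06 (SE 0.15, adjusted p = 0.832 by limma; exact permutation p = 0.657).

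Ier2, a nuclear protein induced by growth factors, had the narrowest range of the 9 genes. It measured 0.81, 0.71, 0.96 and 0.84 in females and 0.83, 0.82, 0.76 and 0.58 in males, a 1.29-fold span from male 4 to female 3. Its log2 fold-change was -0.08 (SE 0.08, 95% interval -0.27 to 0.11, adjusted p = 0.587 by limma; exact permutation p = 0.371). Without male 4 it was -0.03 and without female 3 it was -0.04.

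Dusp1 and Zfp36 act against the response that induces them. Dusp1, a phosphatase that inactivates MAP kinases, was at -4.09, -3.94, -4.13 and -3.76 in females and -4.47, -4.01, -3.91 and -4.53 in males. Male 1 and male 4 lay below every female, and the other males lay within the female range. The log2 fold-change was -0.25 (SE 0.16, 95% interval -0.62 to 0.12, adjusted p = 0.375 by limma; exact permutation p = 0.257), and without male 4 it was -0.15.

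Zfp36, which encodes tristetraprolin, a protein that promotes decay of mRNAs with AU-rich elements, was at -3.67, -4.18, -3.59 and -3.40 in females and -3.81, -3.71, -3.17 and -3.28 in males. Male 3 and male 4 lay above every female, and female 2 was lowest. For Zfp36 the log2 fold-change was 0.22 (SE 0.20, 95% interval -0.25 to 0.68, adjusted p = 0.55 by limma; exact permutation p = 0.429). Without female 2 it was 0.06 and without male 3 it was 0.11. Within the slide rows, 3 of the 9 genes (Fos, Junb and Klf6) kept the same sign in both.

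**Figure D2:**
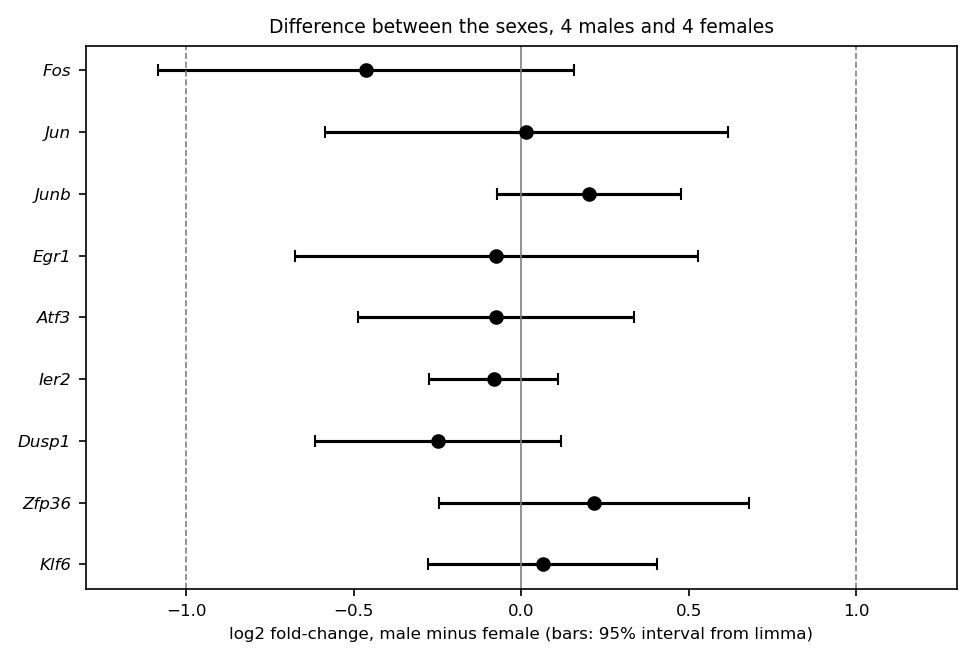
Log2 fold-change, male minus female (horizontal axis), of 9 immediate early genes; points are limma estimates from 4 males and 4 females and bars are 95% intervals. Every interval crosses 0 (solid line), and that of Fos alone reaches beyond a 2-fold change (dashed lines at -1 and 1).

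Several of these genes varied between rats of the same sex. The within-sex SD of the log2 value was 0.44 for Fos, 0.43 for Jun and 0.43 for Egr1, each above 90% of the tested probes, whose 90th percentile was 0.41. It was lower for Zfp36 (0.32), Atf3 (0.29), Dusp1 (0.25), Klf6 (0.23), Junb (0.18) and Ier2 (0.11). The median of all tested probes was 0.16, and 8 of the 9 genes exceeded it.

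Repeated spots of a probe on the same array showed how much of this spread lay within an array. The SD between spots was 0.04 for Jun, so that the SD between rats was 9.66 times larger, and 0.10 for Fos, where it was 4.59 times larger. The ratio was 4.09 for Zfp36, 3.44 for Dusp1, 3.02 for Klf6, 2.51 for Atf3 and 1.98 for Ier2, the last with 10 spots per array. The SD between rats is that of the average of the spots, and the SD between spots is that of single spots. The ratio of Ier2 is therefore not on the scale of the genes with 2 spots. Egr1 had the lowest ratio, 1.61, with an SD between its 2 spots of 0.27. Junb had only 1 spot on each array. Spots share the labelled RNA of a rat, so their agreement leaves out the error of slicing, extraction and labelling. The signals behind these values were 68.3 to 153 intensity units for Fos and 139 to 322 for Egr1.

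**Figure D3:**
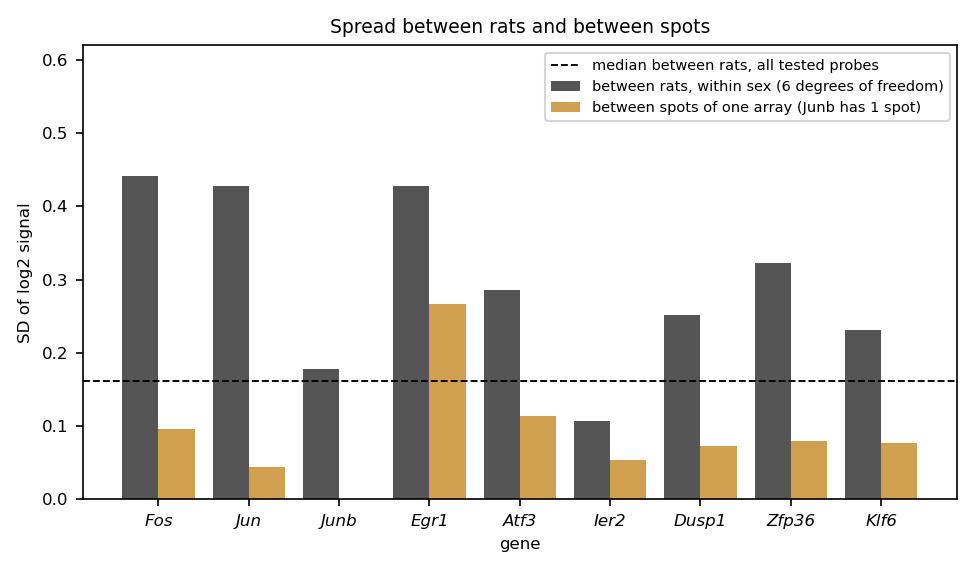
SD of the log2 signal (vertical axis, from 0) of 9 immediate early genes, between rats within sex (grey bars, 4 rats of each sex) and between repeated spots of one array (yellow bars; Junb has 1 spot and no bar); the dashed line is the median between rats of all tested probes, 0.16. The rats differ more than the spots for each gene with repeated spots, by the largest ratio for Jun and the smallest for Egr1.

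The order of the rats changed from gene to gene. Male 3 had the lowest value of all rats for Fos, Jun, Junb and Egr1 but the highest for Zfp36. Male 4 was highest for Jun, Junb and Klf6 and lowest for Ier2 and Dusp1. Female 3 was highest for Fos and Ier2, and female 4 was highest for Atf3 and Dusp1. Male 3 and male 4 thus stood at the highest or lowest end for 5 of the 9 genes each, in mixed directions, and no other rat did so for more than 2. The mean log2 value over the 9 genes ranged from -2.196 to -2.002 in females and from -2.251 to -2.009 in males.

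Over the 36 pairs that the 9 genes form, the median Pearson r across the 8 rats was -0.00034 (jackknife SE 0.11), and 18 pairs were positive and 18 negative. An r of at least 0.5 was found in 4 pairs (11.1%) and an r of -0.5 or below in 5 pairs (13.9%). Among all pairs of tested probes the median r was 0.03, with 16.1% at 0.5 or above and 13.0% at -0.5 or below. With the mean of each sex removed, the median of the 36 pairs was 0.02, and with the mean of each slide row removed it was -0.03. The 75th percentile of the array, used for scaling, had an r of 0.68 with Zfp36, -0.52 with Fos and -0.51 with Dusp1. For the other genes it ranged from -0.25 (Ier2) to 0.42 (Junb). Its part in the values was not tested.

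**Figure D4:**
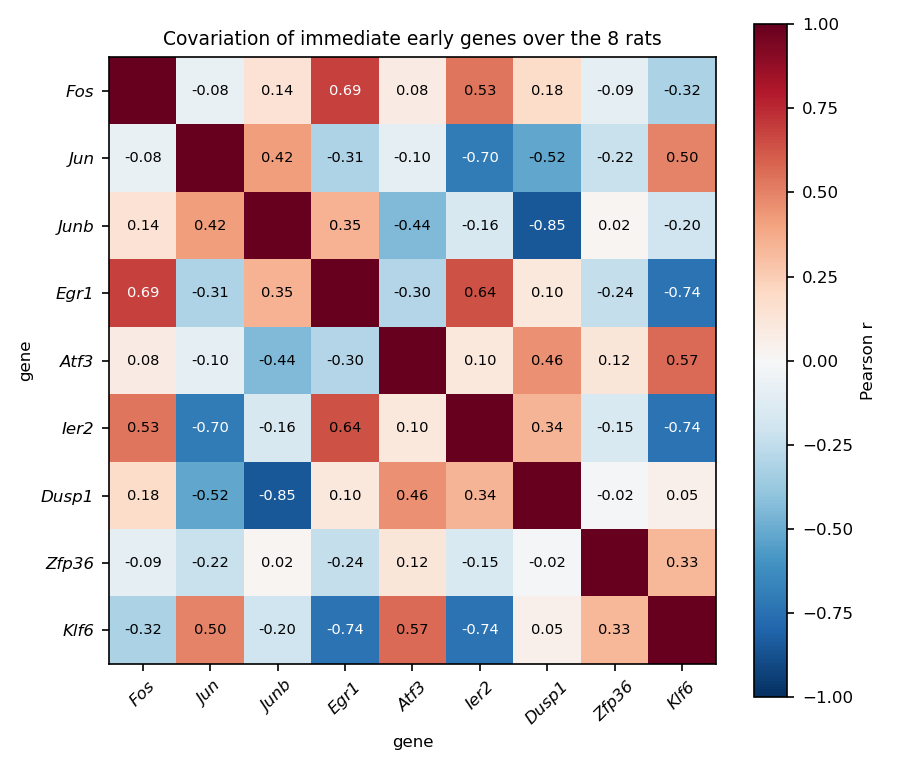
Pearson r across the 8 rats for each pair of 9 immediate early genes (both axes are genes; the colour scale runs from -1, blue, to 1, red). Positive and negative values are equally frequent, with the highest r for Fos and Egr1 (0.69) and the lowest for Junb and Dusp1 (-0.85).

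The highest correlation was that of Fos with Egr1, a pair of genes driven by the same MAP kinase pathway. Both were lowest in male 3 and both were high in male 2. Female 3 had the highest Fos value, whereas its Egr1 value lay below those of male 2 and female 1 only. Pearson r was 0.69 (exact permutation p = 0.0643) and Spearman rho was 0.76 (exact permutation p = 0.0368). Without female 3 and male 3, the rats farthest from the median of Fos, r was 0.65, and with the means of the sexes or of the slide rows removed it was 0.75 and 0.71. Adjusted by Benjamini-Hochberg over the 23424 other tested probes, the exact permutation p for r was 0.972 and that for rho was 1.

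The lowest correlation was that of Junb with Dusp1. Male 1 and male 4 had the lowest Dusp1 and the highest Junb values, and r was -0.85 (exact permutation p = 0.00583) with a rho of -0.86 (exact permutation p = 0.0107). Without these 2 males r was -0.63. Klf6 ran opposite to Egr1 (r -0.74, rho -0.76; exact permutation p = 0.0422 and 0.0368) and to Ier2 (r -0.74, rho -0.64; exact permutation p = 0.0292 and 0.0962). Over all 210816 relations of the 9 genes with other tested probes, no adjusted exact permutation p of a pair of these genes was below 0.999.

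Pairs of genes with a match to the same motif in the printed windows had correlations of either sign. Among the genes with a CArG match, r was -0.74 for Egr1 with Klf6, -0.24 for Egr1 with Zfp36 and 0.33 for Zfp36 with Klf6. Ier2 and Dusp1, which hold a CRE match, had an r of 0.34. These 4 values are descriptions over 8 rats and were not tested as a group.

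Fos was also set against every tested probe. Across the 23424 other probes, 0 passed an adjusted p of 0.05 by Pearson or by Spearman correlation, with lowest adjusted exact permutation p of 0.972 and 1. Before adjustment, 748 probes (3.19%) for Pearson and 554 (2.37%) for Spearman were below 0.05 in the exact permutation test. The named genes with the highest r with Fos were Sppl2a (0.95), Saxo4 (0.93), Ccl19 (0.92), Hmgn1 (0.92) and Neu2 (0.91), and those with the lowest were Map3k7cl (-0.96), Septin7 (-0.92), Zfp598 (-0.90), Hnrnpa3 (-0.89) and Fbxo31 (-0.89).

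The wider response was described with 49 further genes that growth factors or stress induce, of which 47 were tested, and 17 upstream kinases and transcription factors, of which 13 were tested. Fosl1, an AP-1 subunit, and Egr4 were well above background on 0 of 8 arrays. Of the 47 induced genes, 22 had a positive and 25 a negative log2 fold-change with a median of -0.02, 12 (25.5%, against 25.6% of all tested probes) had an unadjusted limma p below 0.05, and 6 (12.8%, against 18.5%) had no overlap between the sexes. An adjusted p below 0.05 was reached by 1 of 47 (2.13%) and by 2 of the 13 upstream genes (15.4%), against 8.05% of all tested probes, and none reached a 2-fold change.

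The induced gene that passed was Gadd45b, a stress-induced activator of p38 and JNK signalling, which was higher in females. It was at -1.318, -0.844, -1.098 and -0.988 in females and -1.469, -1.733, -1.564 and -1.433 in males, without overlap, and the log2 fold-change was -0.49 (SE 0.12, adjusted p = 0.0402 by limma). Rps6ka1, the MAP kinase-activated kinase RSK1, was higher in males, at 2.38 to 2.53 against 2.03 to 2.12 in females (log2 fold-change 0.32, SE 0.07, adjusted p = 0.023 by limma). Elk4, a ternary complex factor that binds with serum response factor at CArG boxes, was at 0.74 to 0.86 in males and 0.50 to 0.62 in females (log2 fold-change 0.25, SE 0.06, adjusted p = 0.0481 by limma). The sizes changed little when single rats were left out, with a log2 fold-change of -0.57 to -0.42 for Gadd45b, 0.29 to 0.34 for Rps6ka1 and 0.23 to 0.28 for Elk4, but 0 of the 3 genes passed without female 2, female 3, male 1 or male 4. Over the 8 rats left out in turn, the limma adjusted p reached at most 0.0968 for Gadd45b, 0.0655 for Rps6ka1 and 0.119 for Elk4, and leaving out a rat also lowered the calls over all probes from 1886 to between 1012 and 1539.

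Among these wider genes, 60 were compared with Fos over the 8 rats. The r was above 0 for 26 of 60 with a median of -0.07, whereas the median over all tested probes was 0.09. For r, 1 of the 60 genes had an exact permutation p below 0.05, against 3.19% of all tested probes. That gene, the transcription factor Cebpb, ran opposite to Fos (r -0.74, rho -0.64; exact permutation p = 0.0391 and 0.0962) and was named after its value was seen. Without female 3 and male 3 its r was -0.40, with the means of the sexes removed it was -0.64, and its adjusted exact permutation p was 0.972. Cebpb did not overlap between the sexes, at -0.06 to 0.39 in females and 0.54 to 0.90 in males. Those with the highest r were the growth factor Areg (r 0.66, rho 0.90; exact permutation p = 0.0563 and 0.00456), Ier5 (0.58), the cytoskeletal gene Arc (0.57), the phosphatase Dusp5 (0.53) and the kinase Mapk3, or ERK1 (0.52). For Ier5 the rho was 0.76 (exact permutation p = 0.0368). For rho, 2.37% of all tested probes were below 0.05 in the exact permutation test, and none passed after adjustment. The count for rho among the 60 genes was not made. Areg was -1.58 in female 1, far above its -3.95 to -2.90 in the other rats, whereas Fos was not highest in female 1. Beside these values, the mean of the 13 tested upstream genes had an r of -0.75 with Fos over the 8 rats. The mean of the thick ascending limb markers had an r of 0.54 and that of the podocyte markers 0.54. Other cell type lists ranged from -0.23 (endothelium) to 0.32 (collecting duct). With Egr1 in place of Fos, r was -0.30 for the upstream mean, 0.03 for the thick ascending limb and 0.09 for the podocyte mean. The upstream mean itself lay between -0.35 and -0.26 on the log2 scale in all rats. The thick ascending limb mean also separated the sexes, and its r was not computed with the sex means removed. The part of these lists in the values of Fos was not tested.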

How the data were processed

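Cortical kidney RNA of 8 rats was hybridized to 8 Agilent SurePrint G3 rat arrays. The authors deposited signal intensity for each spot from Feature Extraction 10.7.3.1, background-subtracted and not normalized between arrays per the file headers, and log2 values of the same signals, distributed identically on every array. The submitters' processing notes name limma 3.8.2.

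After removal of outlier spots, signals were put on the log2 scale, each array's 75th percentile was subtracted and repeated spots were averaged. A probe had to be well above background on 4 or more of the 8 arrays. Probes were fitted with limma 3.58.1 (R 4.3.3, with version 1.17.8 of data.table) as male minus female with Benjamini-Hochberg adjustment, and intervals are 95%. Correlations were tested exactly over 40320 pairings (Python 3.11.15, numpy 2.4.6, matplotlib 3.10.9). In a test on simulated data with 23425 probes, limma found 192 of 200 probes shifted by 2 log2 units and made 1 false call. The 9 genes differed by less, from -0.46 to 0.22, and shifts of that size were not simulated.

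All members were named, with genes of the wider list at an adjusted p below 0.05, its 5 others most like Fos, and the 5 named genes most and least like Fos. Members and lists were chosen with earlier results of these data known. Alternatives were quantile normalization, the deposited log2 values, normexp (offset 16, on the median signal), no filter, a filter on all 8 arrays, outlier spots kept, a trended robust prior, replicate and slide row blocks, and each rat left out. Applying them to the wider list, and values within slide rows, were chosen after seeing the data. The number of arrays limits the precision.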

Additional observations from a re-analysis of the deposited data

Results flagged for a closer look

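Atf3 in female 1 was at -3.39 on the log2 scale relative to the 75th percentile of the array, whereas the other females lay between -2.68 and -2.60. It was picked out because its gap to the nearest female took up nearly the whole range of the 4 females. Of the 18 groups of 4 rats examined (9 genes, 2 sexes), this was the only one that stood out, and chance picks about 1 in 20, or 0.9 of 18. Female 1 was also lowest for Klf6, at -0.63.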

How the results depend on the processing

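Under 17 alternatives, 0 of the 9 genes passed an adjusted p of 0.05 by limma, and 142 of 153 values kept their direction; the lowest adjusted p was 0.0813, for Junb. Signs turned for Egr1 with quantile normalization (0.0091) and the deposited log2 values (0.0122), and, when single rats were left out, for Egr1 (-0.305 to 0.0677), Jun (-0.225 to 0.21), Atf3 (-0.261 to 0.000722) and Klf6 (-0.0404 to 0.156). Without single rats, Fos ranged from -0.679 to -0.311, Junb from 0.152 to 0.313, Ier2 from -0.121 to -0.0285, Dusp1 from -0.356 to -0.149 and Zfp36 from 0.0595 to 0.322. The median pairwise correlation ranged from -0.0952 (Spearman) to 0.0378 (without male 4), beside a jackknife SE of 0.11. That SE is built from the values with single rats left out, so it cannot judge how far those values moved. In the wider list, 3 genes were called, and the count was 1 with no filter and 7 with a trended robust prior (1 and 3 of them among the 3), 1 with the replicate block (0 of the 3), and 0 to 2 without single rats (at most 1 of the 3). Gadd45b passed in 7, Rps6ka1 in 11 and Elk4 in 6 of 17 alternatives. Rats that share a number had deviations with r of 0.12, 0.04, -0.0077 and 0.12, and 4 of 8 rats correlated best with their own number. The value expected by chance was not computed, so these values cannot decide whether the numbers are pairs. The main fit used no pairing, and sex is the only factor that the labels name. The replicate block gave 1025 calls over all probes in place of 1886, and Fos stayed at -0.46. No gene had a second probe, so that alternative was not run. The cause of these shifts was not tested.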
